A study of Homo sapiens with 12 samples.

Results

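The transcripts of 10 replication licensing genes, MCM2, MCM3, MCM4, MCM5, MCM6, MCM7, MCM10, CDC6, CDT1 and GMNN, were followed through 12 RNA-seq libraries of RCC4, an established line of human clear cell renal carcinoma. The genes were chosen by name, for their role, and each is 1 of the 23710 gene rows of every count file. RCC4 cells received 40 pmol of siRNA and were profiled after 72 h. The 12 libraries form 2 experiments: siMESH1-CDS against siNT, and siMESH1-7002 against a siNT group of its own, with 3 libraries labelled as biological replicates in each of the 4 groups. siMESH1-CDS is directed at the coding sequence and siMESH1-7002 at the 3′ UTR of HDDC3, the gene of the NADPH phosphatase MESH1, and siNT is a non-targeting siRNA. The knockdowns were transient and in 1 cell line. Each siRNA was tested in 1 experiment, so siRNA and experiment cannot be told apart. The labels do not say whether replicates came from separate cultures, so p-values measure the spread between these libraries.

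Licensing prepares a replication origin for use once in each cell cycle. The origin recognition complex and CDC6 sit on the DNA and, with CDT1, load MCM2 to MCM7 as a ring of 6 different subunits, the inactive form of the replicative helicase. CDT1 is held back by geminin, the product of GMNN, and by proteolysis once S phase begins, while MCM10 acts later, when the loaded helicase is started. Most of these genes are transcribed in proliferating cells under E2F factors, and MCM proteins are used as markers of proliferation in tumors, kidney cancers among them. In bulk RNA from a culture, fewer cycling cells and less of a transcript in each cell cannot be told apart.

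Depth was high, and the siMESH1-CDS libraries stood apart from the other 9. Reads in genes ranged from 34063155 to 49134129 in the siMESH1-CDS experiment and from 24787804 to 31651125 in the other, and the reads behind a value are given where they are few. HDDC3 fell from 7.48 ± 0.913 to 0.158 ± 0.158 CPM (reads scaled to the size of the library, SD, n = 3) with siMESH1-CDS, the latter from 16 reads in 3 libraries (log2 fold change -3.75 after the GC correction described next), and from 13.2 ± 0.630 to 1.38 ± 0.291 CPM with siMESH1-7002. Counts of 2 replicates differed by a chi-square of 68.9 to 291 per degree of freedom in the siMESH1-CDS group and of 2.29 to 15.8 in the other groups. With siMESH1-CDS the change of a gene went with its GC content: the median log2 change was 1.13 in the lowest of 10 classes of genes by GC content and -3.67 in the highest, against 0.14 and -0.10 with siMESH1-7002. Log2 fold changes corrected for this trend are therefore given for the licensing genes and the other genes named, whereas levels in CPM are uncorrected unless stated. Of 12 markers of kidney epithelium and clear cell carcinoma, 11 reached 1 CPM in the siNT and siMESH1-7002 groups and 9 with siMESH1-CDS, and LRP2, a marker of the proximal tubule, was at 0 in every group. PTPRC, CD3E, PECAM1 and CDH5, which define immune and endothelial cells, were at or near 0 in every group, whereas CD68 and COL1A1 were read in every group and were lower with siMESH1-CDS and higher with siMESH1-7002. Summed, the 3 immune markers stood at 45.1 to 62.4 CPM in siNT and 1.09 to 7.39 CPM in siMESH1-CDS, and at 104.5 to 106.4 CPM in siNT and 136.1 to 146.0 CPM in siMESH1-7002. The 3 fibroblast markers summed to 19.5 to 22.5 CPM in siNT and 3.93 to 4.17 CPM in siMESH1-CDS, and to 11.3 to 14.3 CPM in siNT and 26.3 to 30.1 CPM in siMESH1-7002. The immune sum was nearly all CD68 and the fibroblast sum nearly all COL1A1. DCN and PDGFRB, the other fibroblast markers, stayed under 1 CPM in every group. PDGFRB, at 0.785 CPM in siNT and 0.449 CPM in siMESH1-7002, went the other way from COL1A1 there. The part of these markers in the results was not tested.

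Promoters of these genes are known for E2F sites, and 6 of the 8 licensing genes with a promoter in the RefSeq table used here (build GRCh38.p14, MCM4 and MCM5 not in it) held an E2F word. Both strands were searched for the word TTGGCGC and for its variants, which were TTCCCGC with a run of C, then TTGCCGC with a shorter run, and last TTCGCGC with none, in a window from 250 bases before to 50 bases after the start site. Of 14725 promoters 16.8% hold at least 1 such word. MCM2, MCM3, MCM6, MCM7 and CDT1 held words at 2 or more positions, as 2.51% of promoters do, and CDC6 held 1 word. The stretches below show 1 place in each of the 6 promoters, written 5′ to 3′ on the strand of the gene, with the E2F words in capitals. Where words overlap, as in TTCGCGCGAA, each strand holds 1.
MCM2, chr3:127598403-127598432, + strand: gtgaaccacttTTCGCGCGAAacctggttg
MCM3, chr6:52284727-52284756, - strand: gttcggaagttTTCGCGCcggggtggagtc
MCM6, chr2:135876514-135876543, - strand: attggtcaggtTTGGCGCGAAatctccagc
MCM7, chr7:100101387-100101416, - strand: gggggcgacgtTTCGCGCCAAtttcggttg
CDC6, chr17:40287876-40287905, + strand: gccattcggatTTGGCGCgagcgcggctgg
CDT1, chr16:88803743-88803772, + strand: ccagggcgcccGCGGGAAatttgGCGGGAA

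The first E2F base shown lies within 8 bases of the start site in MCM2, MCM3, MCM7 and CDC6, 35 bases before it in CDT1 and 89 bases before it in MCM6. CCAAT, the word of the factor NF-Y, was found on either strand in 5 of the 8 promoters (MCM3, MCM6, MCM7, MCM10 and CDC6) and in 36.4% of all promoters. TTTGAA, a core of the element of genes of late cell cycle phases, was in none of the 8 and in 12.1% of all. MCM10 and GMNN held no E2F word in this window. These matches describe letters in a window and say nothing of binding.

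Both siRNAs come with guide strands whose seed can match other transcripts, and 2 licensing genes held such a match in the 3′ UTR. The guides follow from the target sequences in the design text of the series, 5′ to 3′ in DNA letters, with the seed, positions 2 to 8, in capitals.
siMESH1-CDS guide: cACAATGTcagtgattccc
siMESH1-7002 guide: tAGTTAGCaggagaccttcag
The sites in CDC6 and GMNN, from the transcript of each gene with the longest coding sequence in GENCODE 29, have the match to the siMESH1-CDS seed in capitals.
CDC6 site: cagatactacaACATTGTggcattttagac
GMNN site: actcctgttgaACATTGTgtataacttaga
The word ACATTGT stood in 12.4% of 18401 3′ UTRs. None of the 10 genes held GCTAACT, the match to the siMESH1-7002 seed, which stood in 4.6% of 3′ UTRs. The sample labels give another catalogue number for this siRNA than the design text does, so its guide and the matches to it hold only if the sequence in the design text was the one used. Both genes with a siMESH1-CDS match were also lower with siMESH1-7002, and the part of the match was not tested.

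All 10 licensing genes were lower with both siRNAs. With siMESH1-CDS 10 of 10 passed the test as lower, where 37.2% of the 13395 genes tested did, and the 3 siMESH1-CDS libraries lay below the 3 siNT libraries for 10 of 10, as for 42.5% of all genes. With siMESH1-7002 10 of 10 passed as lower, where 26.7% of 13568 genes did, and the groups were apart for 10 of 10, as for 29.9% of all genes. A gene passed at an adjusted p under 0.05 in edgeR's quasi-likelihood test, with Benjamini-Hochberg adjustment over all genes tested, and all 10 genes passed the filter on low counts. A fall of at least 2-fold was called for 9 of 10 with siMESH1-CDS (all but GMNN), against 30.8% of all genes, and for 8 of 10 with siMESH1-7002 (all but MCM7 and GMNN), against 4.06%. The median log2 fold change was -3.47 over the licensing genes and -0.05 over all genes with siMESH1-CDS, and -1.60 over the licensing genes and 0.01 over all genes with siMESH1-7002. As the genes were named with earlier results of these data known, the counts describe them and are no test of the group.

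**Figure D1:**
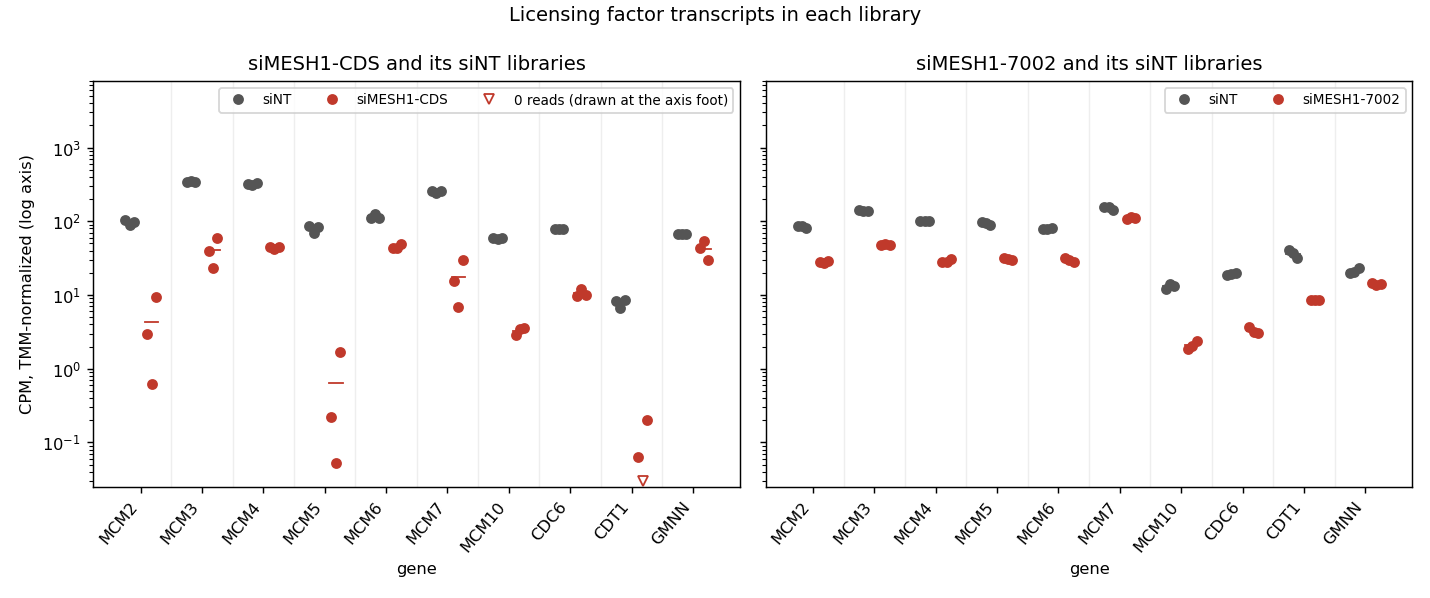
Level of each licensing gene in each library, in CPM on a log axis, with siNT in grey and siMESH1 in red (left panel siMESH1-CDS, right panel siMESH1-7002). Points are libraries, bars are means of 3, and the open triangle is a library with 0 reads. The red points lie below the grey points for 10 of 10 genes in both panels, and the siMESH1-CDS points of MCM2, MCM5 and CDT1 spread most.

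MCM2, MCM4 and MCM6 belong to the ring that is loaded on DNA, and MCM4 and MCM6, with MCM7, form its core, around which MCM2 is a regulatory subunit. Values are CPM after TMM normalization (edgeR's scaling between libraries), in the order of replicates 1, 2 and 3. MCM4 stood at 321.6, 312 and 326 CPM in siNT and at 45.2, 42.5 and 44.3 CPM in siMESH1-CDS. In the other experiment it stood at 100.8, 100.2 and 100.2 CPM in siNT and at 27.9, 28.2 and 30.5 CPM in siMESH1-7002. The 3 values of each group lay close together and 13.8% and 28.7% of the siNT mean was left, a log2 fold change of -2.86 ± 0.0785 (SE, adjusted p = 1.16e-04) with siMESH1-CDS and -1.80 ± 0.0545 (adjusted p = 1.87e-13) with siMESH1-7002. MCM6 stood at 112, 126 and 112 CPM in siNT and at 43.8, 43.4 and 49.1 CPM in siMESH1-CDS. With siMESH1-7002 it stood at 31.8, 29.5 and 27.8 CPM, under 78.8, 78.9 and 80.6 CPM in siNT. MCM6 thus kept nearly the same share in both experiments, 39.0% and 37.4%, with log2 fold changes of -1.36 ± 0.103 (adjusted p = 3.02e-04) and -1.42 ± 0.0585 (adjusted p = 4.23e-12). MCM2 stood at 103, 89.4 and 98.8 CPM in siNT and at 2.94, 0.624 and 9.32 CPM in siMESH1-CDS, which are 93, 24 and 324 reads. The siMESH1-CDS replicates of MCM2 spread by more than 10-fold yet all lay far below siNT, with a log2 fold change of -4.50 ± 0.923 (adjusted p = 0.00583). With siMESH1-7002 MCM2 stood at 28.0, 27.1 and 28.7 CPM, under 87.3, 85.8 and 81.1 CPM in siNT, and 33.0% was left (log2 fold change -1.60 ± 0.0558, adjusted p = 6.18e-13).

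MCM3, MCM5 and MCM7 are the other subunits of the ring, MCM5 facing MCM2 at the gate through which DNA enters. MCM3 stood at 339.9, 349.5 and 343 CPM in siNT and at 39.2, 23.5 and 59.5 CPM in siMESH1-CDS. With siMESH1-7002 it stood at 47.8, 49.01 and 47.7 CPM, under 143, 136 and 139 CPM in siNT. A share of 11.8% was left with siMESH1-CDS and of 34.6% with siMESH1-7002, with log2 fold changes of -3.08 ± 0.343 (adjusted p = 7.04e-04) and -1.53 ± 0.0490 (adjusted p = 3.22e-13). MCM5 fell furthest of the 10 with siMESH1-CDS, from 85.9, 70.1 and 85.0 CPM to 0.221, 0.0520 and 1.67 CPM, and from 3166 to 4573 reads in a siNT library to 7, 2 and 58 reads. That left 0.806% of the siNT mean, a log2 fold change of -6.95 ± 1.09 (adjusted p = 0.00211). With siMESH1-7002 the same gene kept 33.0%, at 31.8, 30.9 and 30.3 CPM against 96.4, 96.0 and 89.7 CPM (log2 fold change -1.60 ± 0.0547, adjusted p = 5.27e-13).

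MCM7 kept the largest share of the 10 genes with siMESH1-7002 and only a small share with siMESH1-CDS. It stood at 261, 242 and 255 CPM in siNT and at 15.6, 6.89 and 29.7 CPM in siMESH1-CDS, 6.88% of the siNT mean (log2 fold change -3.86 ± 0.537, adjusted p = 0.00143). In the other experiment it stood at 156, 155 and 143 CPM in siNT and at 108, 113 and 110 CPM in siMESH1-7002, so that 73.1% was left (log2 fold change -0.45 ± 0.0487, adjusted p = 7.77e-07). In both experiments the siMESH1 libraries lay below all siNT libraries. Exons of MCM7 (chr7:100092728-100101940, GRCh38, - strand) share 277 bases with AP4M1 on the opposite strand. AP4M1 had a log2 fold change of -2.44 with siMESH1-CDS (adjusted p = 0.026), which GC correction brought to -0.42 (adjusted p = 0.278), and of 0.39 with siMESH1-7002 (adjusted p = 1.68e-05). Exons of MCM2 (chr3:127598223-127622436, + strand) share 45 bases with TPRA1 on the opposite strand, whose log2 fold change was -4.15 (adjusted p = 0.00346) with siMESH1-CDS, -2.74 (adjusted p = 0.00138) after GC correction, and 0.03 (adjusted p = 0.723) with siMESH1-7002. The kit keeps strand, but the strand setting of the counting is not given in the sources used here, so reads of the shared bases cannot be told apart. MCM2, MCM5 and MCM7 with siMESH1-7002 lost the call, at adjusted p = 0.0965, 0.0685 and 0.492, when all 4 groups were fitted as 1 edgeR model with a shared spread.

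CDC6 and CDT1 load the ring, and MCM10 helps to start it. CDC6 stood at 79.8, 78.4 and 78.6 CPM in siNT and at 9.58, 12.1 and 10.0 CPM in siMESH1-CDS, so that 13.4% was left. It stood at 18.5, 19.1 and 19.9 CPM in siNT and at 3.64, 3.14 and 3.00 CPM in siMESH1-7002 (105, 93 and 91 reads), with 17% left. Fitted log2 fold changes of CDC6 were -2.90 ± 0.132 (adjusted p = 1.78e-04) and -2.55 ± 0.0958 (adjusted p = 1.33e-12). MCM10 was the licensing gene that fell furthest with siMESH1-7002, from 12.2, 14.1 and 13.1 CPM to 1.84, 2.06 and 2.34 CPM (53, 61 and 71 reads), a log2 fold change of -2.65 ± 0.116 (adjusted p = 8.77e-12). With siMESH1-CDS it went from 60.1, 58.2 and 60.0 CPM to 2.85, 3.41 and 3.60 CPM (90, 131 and 125 reads), a log2 fold change of -4.18 ± 0.148 (adjusted p = 1.68e-04). Its replicates lay close together in all 4 groups, whereas those of MCM2 and MCM5 spread widely with siMESH1-CDS. CDT1 stood at 8.23, 6.60 and 8.68 CPM in siNT and at 0.0632, 0 and 0.201 CPM in siMESH1-CDS, which are 2, 0 and 7 reads against 438, 298 and 404. The transcript was thus nearly unread in that group, and the log2 fold change of -6.45 ± 0.771 (adjusted p = 8.72e-04) rests on 9 reads in 3 libraries. With siMESH1-7002 CDT1 stood at 8.56, 8.44 and 8.61 CPM, against 40.4, 37.1 and 31.6 CPM in siNT, and 23.5% was left (log2 fold change -2.09 ± 0.0903, adjusted p = 7.68e-12).

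GMNN, the inhibitor of CDT1, fell least of the 10 with siMESH1-CDS and next to least with siMESH1-7002. It stood at 67.7, 67.1 and 66.3 CPM in siNT and at 43.3, 54.3 and 29.8 CPM in siMESH1-CDS, with 63.4% left (log2 fold change -0.66 ± 0.220, adjusted p = 0.0341). This call was lost at adjusted p = 0.0865, 0.0843, 0.081 and 0.0901 when siNT replicate 1, 2 or 3 or siMESH1-CDS replicate 1 was left out. With siMESH1-7002 GMNN stood at 14.6, 13.6 and 14.03 CPM, against 20.1, 20.3 and 23.5 CPM in siNT, with 66.0% left (log2 fold change -0.60 ± 0.0785, adjusted p = 7.04e-06). The shares left were close in the 2 experiments, as for MCM6, but GC correction took both genes further down with siMESH1-CDS, to -1.21 for GMNN and -1.93 for MCM6.

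CDT1 was lower relative to its inhibitor in both siMESH1 groups, by an amount that shrank with GC correction in the siMESH1-CDS experiment. The log2 ratio of CDT1 to GMNN reads, with 1 read added to each, was -3.10 ± 0.213 (SD, n = 3) in siNT and -8.96 ± 2.01 in siMESH1-CDS. With siMESH1-7002 it was -0.72 ± 0.0408, against 0.77 ± 0.304 in siNT. No siMESH1 library reached the range of siNT, with differences of -5.86 and -1.48, and the two-sided exact permutation test gave p = 0.1 in each, the smallest p that 3 against 3 libraries allow. The first difference was -4.82 without siMESH1-CDS replicate 2 and -6.83 without replicate 3. CDT1 and GMNN lie near opposite ends of the GC range of the licensing genes (64.9% and 43.6%). With the levels of each library corrected for GC content, an alternative chosen after seeing the data, the ratio with siMESH1-CDS was -4.45 ± 0.721 and that in its siNT group -3.10 ± 0.124, a difference of -1.35. With siMESH1-7002 the corrected difference was also -1.35. The groups stayed apart in both (exact permutation p = 0.1 in each).

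**Figure D2:**
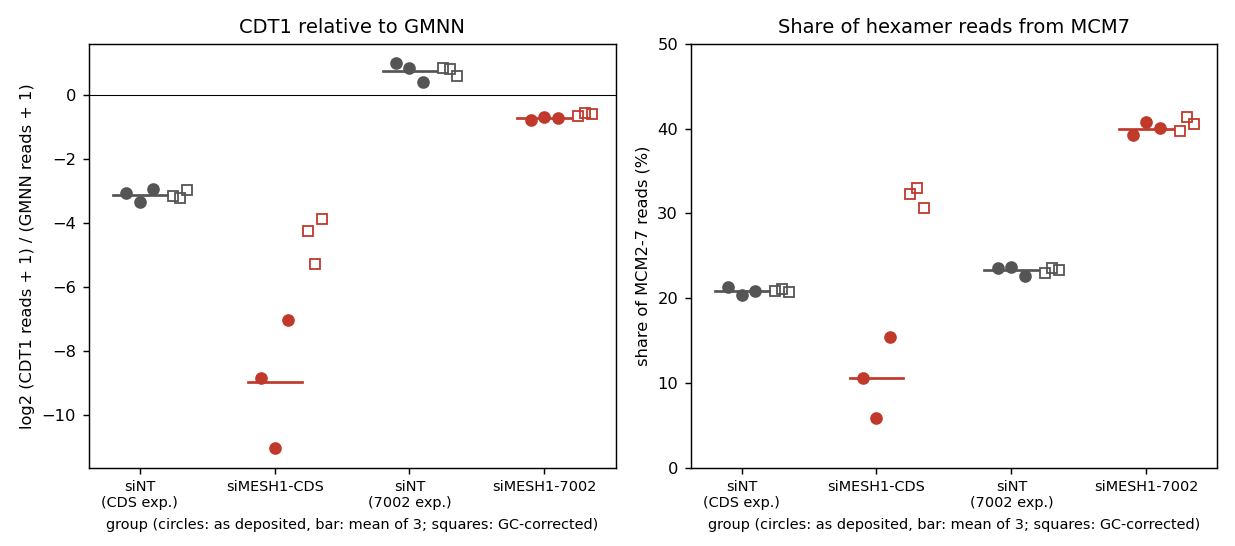
Left, log2 ratio of CDT1 to GMNN reads in each library (1 read added to each). Right, share of all MCM2-7 reads that came from MCM7, in percent. Circles are libraries as deposited, bars are their means of 3, and open squares are the same libraries after GC correction. The ratio is lower in both siMESH1 groups, and the MCM7 share is above siNT with siMESH1-7002 (39.2% to 40.8%) but below it (5.89% to 15.4%) or, corrected, above it (30.6% to 33.0%) with siMESH1-CDS.

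Within the ring the subunits fell by unequal amounts, and how their order compared between the siRNAs depended on the GC correction. As deposited, MCM6 fell least with siMESH1-CDS and MCM7 least with siMESH1-7002. After GC correction MCM7 fell least with both (log2 fold changes -1.67 and -0.33) and MCM6 next to least (-1.93 and -1.41), while MCM5 fell furthest with siMESH1-CDS (-5.30) and MCM4 with siMESH1-7002 (-1.70). Summed over MCM2 to MCM7, the level went from 1211 ± 18.4 to 152.5 ± 38.6 CPM with siMESH1-CDS and from 649 ± 14.4 to 276 ± 1.45 CPM with siMESH1-7002. MCM7 gave 20.9% ± 0.500 of these reads in siNT and 10.6% ± 4.73 in siMESH1-CDS, and 23.3% ± 0.603 in siNT and 40.0% ± 0.762 in siMESH1-7002. GC correction, which set siMESH1 levels relative to unchanged mean siNT levels, turned the direction with siMESH1-CDS: MCM7 then gave 32.0% ± 1.22 in siMESH1-CDS against 20.9% ± 0.157 in siNT, and 40.6% ± 0.826 against 23.3% ± 0.266 in the other experiment. The corrected sum was 248.3 ± 22.3 CPM in siMESH1-CDS. This share was described after its values were seen and was not tested. Per kilobase of exon, the highest of the 6 subunits, MCM3, was 4.71 times the lowest, MCM5, in siNT of the siMESH1-CDS experiment and 69.2 times in siMESH1-CDS. In the other experiment MCM3 was 2.04 times MCM6 in siNT, and MCM7 was 4.56 times MCM4 in siMESH1-7002. After GC correction MCM7 was the highest in siMESH1-CDS too, at 46.2 times MCM5. The ring holds 1 of each subunit, and the levels of the 6 transcripts lay further apart after both siRNAs than in siNT.

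**Figure D3:**
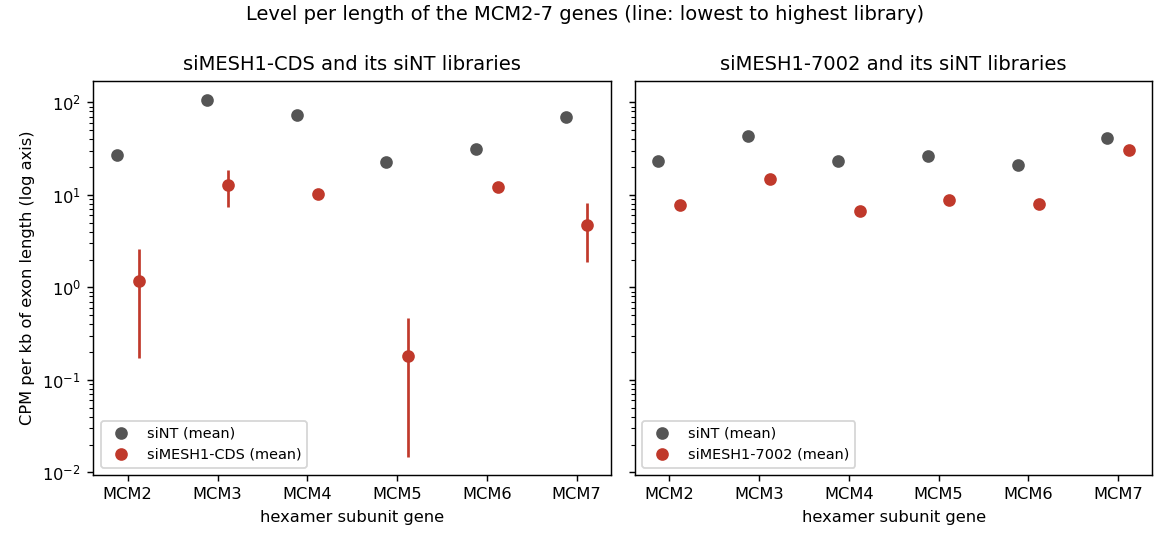
Level of the MCM2-7 transcripts per kilobase of exon (CPM per kb, log axis), siNT in grey and siMESH1 in red. Points are means of 3 libraries and lines run from the lowest to the highest library. Red points lie below grey points for all 6 genes, from 0.183 CPM per kb for MCM5 with siMESH1-CDS to 30.3 CPM per kb for MCM7 with siMESH1-7002.

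Ordered by level per kilobase of exon, not corrected for GC content, MCM3 led the licensing genes in both siNT groups and in neither siMESH1 group. Per kilobase of coding sequence MCM7 came before MCM3 in siNT of the siMESH1-7002 experiment (70.1 and 54.5 CPM per kb). In siNT of the siMESH1-CDS experiment the order was MCM3 (107 CPM per kb), MCM4 (73.7), MCM7 (69.2), GMNN (49.3), MCM6 (31.2), MCM2 (26.8), MCM5 (22.7), CDC6 (16.4), MCM10 (12.8) and CDT1 (2.42 CPM per kb), with no overlap between neighbours. In siMESH1-CDS GMNN led at 31.2 CPM per kb, above MCM3 (12.7) and MCM6 (12.2), which overlapped, and CDT1 was again last at 0.0272 CPM per kb. From MCM7 down to MCM10, and from MCM5 to CDT1, neighbours overlapped in that group. In siNT of the siMESH1-7002 experiment MCM3 (43.4 CPM per kb) and MCM7 (41.4) overlapped, as did MCM2 (23.4) and MCM4 (23.1), and CDC6 (3.98) and MCM10 (2.83 CPM per kb) were last. In siMESH1-7002 MCM7 led alone at 30.3 CPM per kb, followed by MCM3 (14.99) and GMNN (10.4), and CDC6 (0.678) and MCM10 (0.448 CPM per kb) were again last.

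GC content is the measure with which the siMESH1-CDS values moved, and the licensing genes span it widely, from 43.1% in MCM6 to 64.9% in CDT1. After a correction for GC content in each library, all 10 genes were still called lower with siMESH1-CDS, where 26.8% of all genes tested were. The corrected median log2 fold change was -2.53 over the 10 and 0.17 over all genes. MCM7 moved most on the fold scale among the 6 subunits, from -3.86 to -1.67 ± 0.0569 (adjusted p = 1.5e-05), next to MCM2, from -4.50 to -2.51 ± 0.398 (adjusted p = 0.00208), and MCM5, from -6.95 to -5.30 ± 0.570 (adjusted p = 4.42e-04). CDT1, the gene with the highest GC content, moved from -6.45 to -2.87 ± 0.392 (adjusted p = 0.00114). MCM6 and GMNN, the genes with the lowest, moved the other way, to -1.93 ± 0.128 (adjusted p = 7.78e-05) and -1.21 ± 0.158 (adjusted p = 9.35e-04). MCM3 and MCM4 came to -2.55 and -2.37, and MCM10 and CDC6 to -4.29 and -3.21. With siMESH1-7002 the correction shifted the 10 log2 fold changes little, to between -2.59 (MCM10) and -0.33 (MCM7). Against genes of like GC content, without correction, 8 of 10 lay under the 10th percentile of their class with siMESH1-CDS (all but MCM2 and MCM7) and 9 of 10 with siMESH1-7002 (all but MCM7). With siMESH1-CDS, MCM2 (58.14%) and MCM7 (58.10%) lay at the low edge of a class from 58.09% to 61.54%. Both were below the 10th percentile of the class beneath it (-3.69).

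**Figure D4:**
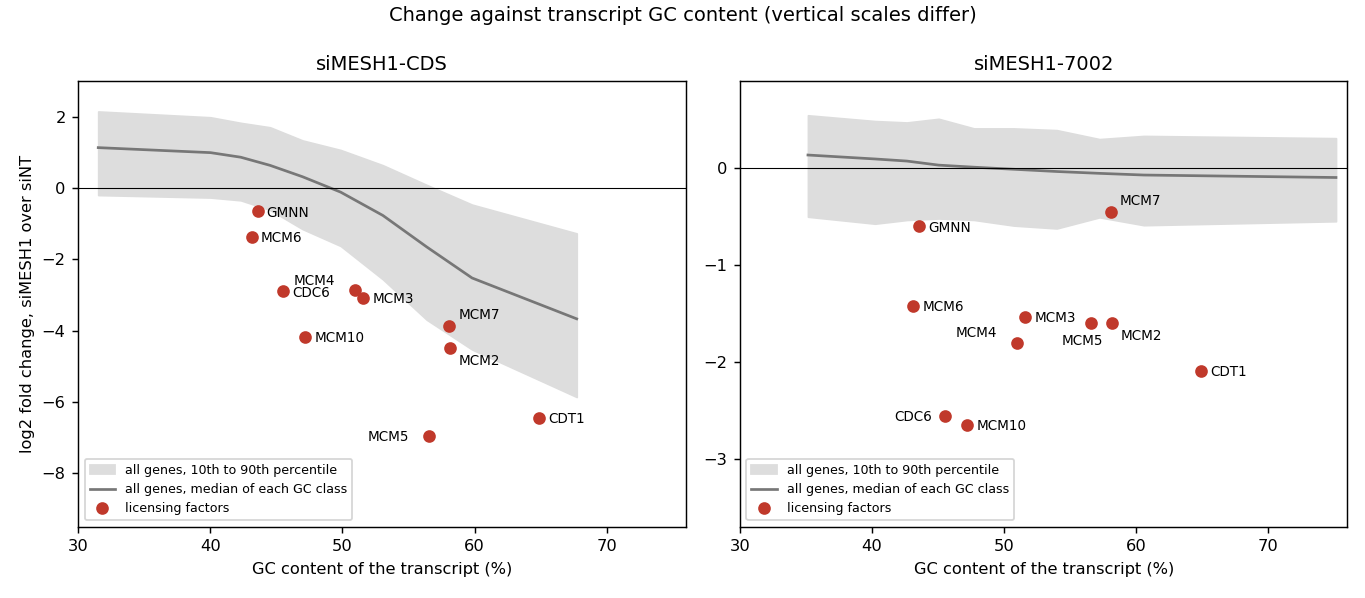
Log2 fold change of each licensing gene (red points) against the GC content of its transcript in percent, beside all genes tested (grey line, median of each of 10 classes of genes by GC content; grey band, 10th to 90th percentile). With siMESH1-CDS (left) the line falls from 1.13 to -3.67, and 8 of 10 genes lie under the 10th percentile of their own class. With siMESH1-7002 (right) the line runs from 0.14 to -0.10, and 9 of 10 genes do. The band joins class midpoints, so MCM2 is drawn below it on the left though not under the percentile of its class.

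Single libraries set the size of the fall for several genes with siMESH1-CDS. Replicate 2 was the lowest of the 3 siMESH1-CDS libraries for 7 of the 10 genes, all 6 subunits and CDT1, and the highest for CDC6 and GMNN. Without siMESH1-CDS replicate 3 the log2 fold changes were -5.81 for MCM2, -9.26 for MCM5, -4.51 for MCM7 and -7.97 for CDT1, and without replicate 2 they were -6.36 for MCM5 and -5.81 for CDT1. These genes were called lower without any 1 library. Lanes differed between the siMESH1-CDS and siNT libraries, and 2 lanes held 1 of each. Within lane 4 the log2 difference ran from -1.18 for GMNN to -5.64 for MCM5, and within lane 6 from -0.61 for GMNN to -8.29 for MCM5, lower for 10 of 10 genes in both. All libraries of the siMESH1-7002 experiment ran on lane 2.

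The fall itself differed between the siRNAs for 8 of the 10 genes, against 69.7% of the 14154 genes tested, and for these 8 it was larger with siMESH1-CDS. The count of 8 is close to the share among all genes. The test was a contrast of the 2 changes in 1 edgeR model of all 12 libraries. As deposited, the largest differences were those of MCM5, -5.50 ± 0.858 on the log2 scale (adjusted p = 2.83e-04), CDT1, -4.51 ± 0.518 (adjusted p = 4.14e-05), and MCM7, -3.56 ± 0.537 (adjusted p = 2.31e-04). The change of MCM6 differed by -0.09 ± 0.119 (adjusted p = 0.520) and that of GMNN by -0.21 ± 0.246 (adjusted p = 0.462), which is within their error. Without siMESH1-CDS replicate 3 the difference was -7.73 for MCM5, -5.93 for CDT1 and -4.31 for MCM2, and without replicate 2 it was -4.92, -3.89 and -2.53. The difference of CDC6, -0.50 ± 0.151 (adjusted p = 0.0134), lost its call without siMESH1-CDS replicate 1 (adjusted p = 0.0702), with limma voom (0.0778) and with DESeq2 (0.0614), and that of GMNN passed without siMESH1-CDS replicate 2 (adjusted p = 0.048). After GC correction all 10 genes differed, against 60.9% of all genes tested, and the order changed. MCM5 (-3.69, adjusted p = 3.74e-05) was then followed by MCM10 (-1.74, adjusted p = 4.07e-06), whose difference as deposited was -1.67. Those of CDT1, MCM7 and MCM2 shrank to -1.08 (adjusted p = 0.0264), -1.27 (adjusted p = 1.03e-07) and -0.92 (adjusted p = 0.0477). Those of MCM6 and GMNN grew to -0.59 (adjusted p = 0.00686) and -0.70 (adjusted p = 0.00461).

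**Figure D5:**
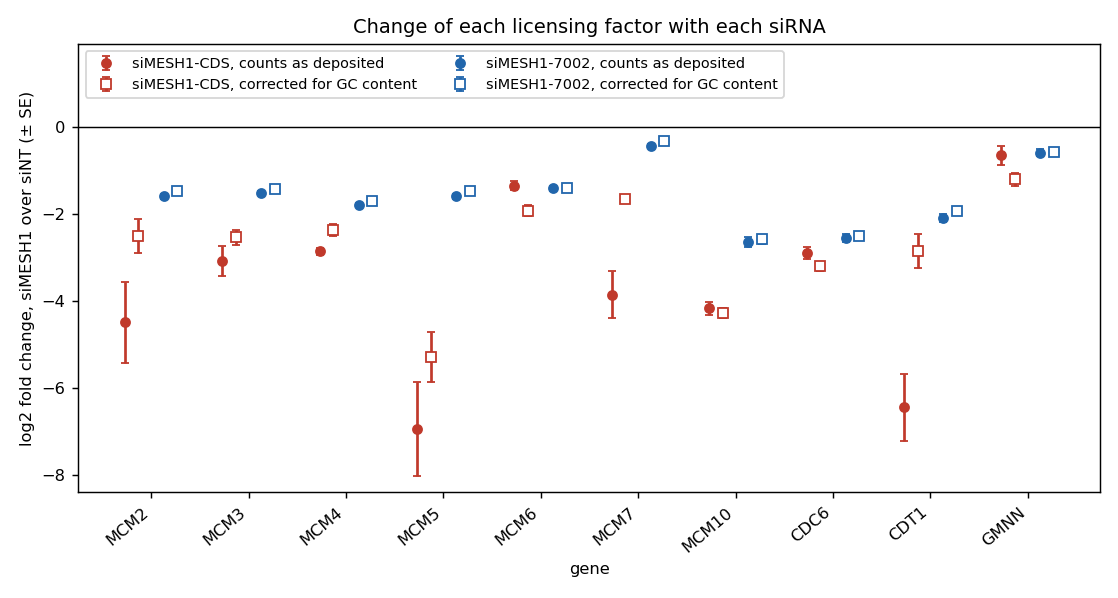
Log2 fold change of each licensing gene, siMESH1 over siNT, with SE, for siMESH1-CDS (red) and siMESH1-7002 (blue), from counts as deposited (filled circles) and after GC correction (open squares). All points lie below 0. Red and blue filled circles are closest for MCM6 (-1.36 and -1.42) and GMNN (-0.66 and -0.60) and furthest apart for MCM5 (-6.95 and -1.60).

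Of 41 other genes of licensing and origin firing, 26 passed as lower and 8 as higher with siMESH1-CDS, and 25 as lower and 2 as higher with siMESH1-7002. Beside the 37.2% lower, 36.9% of all genes were higher with siMESH1-CDS, and beside the 26.7% lower, 26.6% with siMESH1-7002. The median log2 fold change of the 41 genes was -0.80 and -0.50, smaller in size than that of the licensing genes. As deposited, 21 were lower with both siRNAs and 0 higher with both by edgeR. Of the 12824 genes tested in both experiments, 15.1% were lower and 15.5% higher with both. With GC correction 26 of the 41 passed as lower with each siRNA, and 8 and 6 as higher. Of all genes 26.8% were then lower and 40.2% higher with siMESH1-CDS, and 23.6% and 39% with siMESH1-7002. ORC4 (0.20 and 0.15), MCM3AP (0.30 and 0.09), SKP2 (0.90 and 0.24) and CUL4A (0.49 and 0.24) were called higher with both after correction. The corrected median over all genes was itself 0.17 and 0.075. MCM3AP had been called lower with siMESH1-CDS as deposited (-0.68, adjusted p = 0.0143). ORC4 lost its siMESH1-CDS call when a replicate block was added to the correction (adjusted p = 0.0693). ORC1, the subunit of the origin recognition complex that binds CDC6, went from 67.3 ± 4.57 to 3.99 ± 1.19 CPM with siMESH1-CDS and from 20.1 ± 0.577 to 4.17 ± 0.299 CPM with siMESH1-7002 (log2 fold changes -4.08 and -2.27, adjusted p = 2.35e-04 and 2.03e-12, and -3.68 with siMESH1-CDS after GC correction). ORC6, the other subunit that fell with both as deposited, had log2 fold changes of -2.15 and -1.84 (adjusted p = 3.05e-04 and 2.13e-09), and -2.38 with siMESH1-CDS after GC correction. The other subunits showed no common fall as deposited. ORC2, ORC4 and ORC5 were called higher with siMESH1-CDS, at 0.87, 1.06 and 0.67 (adjusted p = 0.0066, 0.00401 and 0.00662), but after GC correction came to 0.08, 0.20 and -0.02, with only ORC4 still called (adjusted p = 0.0337). With siMESH1-7002 they had log2 fold changes of 0.03, 0.18 and -0.02 (adjusted p = 0.76, 0.0535 and 0.883). ORC3 had a log2 fold change of 0.43 with siMESH1-CDS (adjusted p = 0.0547), which turned to -0.38 after GC correction (adjusted p = 0.00121). With siMESH1-7002 ORC3 fell as deposited (-0.50, adjusted p = 3.41e-05) and after correction (-0.53, adjusted p = 5.86e-08), so that it was lower with both once corrected.

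Of 12 genes of origin firing, 9 were lower with siMESH1-CDS as deposited, 12 with siMESH1-7002 and 9 with both, beside the 15.1% of all genes lower with both. DBF4, MTBP and TIPIN, the genes not called with siMESH1-CDS, were called lower with it after GC correction (-0.40, -1.22 and -0.67). CLSPN, the adaptor claspin of the replication checkpoint and fork, went from 126 ± 3.91 to 14.6 ± 0.960 CPM and from 24.98 ± 0.425 to 4.91 ± 0.762 CPM (log2 fold changes -3.11 and -2.34, adjusted p = 1.65e-04 and 3.11e-12), and came to -3.64 with siMESH1-CDS after GC correction. CDC7, the kinase that phosphorylates the loaded MCM ring, fell in both experiments, with log2 fold changes of -1.18 and -1.17 as deposited (adjusted p = 0.00199 and 2.54e-08) and of -1.99 and -1.20 after GC correction. Its activating subunit DBF4 had a log2 fold change of 0.40 with siMESH1-CDS (adjusted p = 0.158), -0.40 after GC correction (adjusted p = 0.0219), and fell with siMESH1-7002 (-0.41, adjusted p = 5.29e-04). A list of 8 genes held relatives and partners of the MCM proteins, histone chaperones and other chromatin factors. Of these, 6 were lower and 2 higher with siMESH1-CDS and 4 lower with siMESH1-7002. Of the 4 that fell with both, MCM8, a helicase of DNA repair, had the largest smaller change of the 2 (-1.12 and -1.44, adjusted p = 5.7e-04 and 1.54e-09). With siMESH1-CDS as deposited, SSRP1 (-1.81) and MCMBP (-1.27) fell further than MCM8. GC correction brought the siMESH1-CDS changes to -1.75 for MCM8, -1.01 for SSRP1 and -1.92 for MCMBP, so that SSRP1 no longer fell further than MCM8. Of 14 genes that turn over CDT1, CDC6 and geminin, 8 were lower and 3 higher with siMESH1-CDS, 5 lower and 2 higher with siMESH1-7002, and 5 lower with both, as deposited. Of all genes, 37.2% were lower and 36.9% higher with siMESH1-CDS, and 26.7% and 26.6% with siMESH1-7002. These shares also stand beside the counts of the 8 genes above. After GC correction FBXO31 (-2.41 to -0.01) and CCNF (-3.19 to -0.81) were no longer called with siMESH1-CDS, while USP7 (-0.01 to -0.30) was called lower. DTL, which directs CDT1 to proteolysis in S phase, went from 198 ± 5.43 to 26.7 ± 2.08 CPM and from 36.4 ± 1.99 to 7.37 ± 0.333 CPM (log2 fold changes -2.89 and -2.30, adjusted p = 1.68e-04 and 4.19e-13), and came to -3.55 with siMESH1-CDS after GC correction.

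The licensing genes followed each other over the libraries to different degrees. Pearson's r between a gene and the mean of the other 9, over 12 libraries centred within each experiment, was highest for MCM3 (0.998) and lowest for GMNN (0.774), and lay from 0.914 to 0.992 for the other 8. The libraries share the contrast of siMESH1 with siNT and the GC trend, so these values are descriptions. Among 12265 other genes, those most like the mean of the 10 were C1orf116, KRT80, a keratin, DNMT1, the maintenance DNA methyltransferase, ARHGEF39 and PHF19, with r from 0.998 to 0.999. Their log2 fold changes were -2.67, -1.81, -3.22, -3.03 and -3.90 with siMESH1-CDS and -1.06, -0.76, -1.18, -1.15 and -1.72 with siMESH1-7002. After GC correction those with siMESH1-CDS were -2.13, 0.26, -1.43, -2.22 and -2.08, so that KRT80 was no longer lower.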

How the data were processed

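RNA was sequenced from 12 libraries of RCC4 cells. Per the labels' processing notes, the authors used FastQC, HISAT2, HTSeq and DESeq2 with build hg19; versions and counting options are not given in the sources used here. The deposited files hold whole-number read counts per gene symbol. The authors' DESeq2 tables hold their own comparisons and were not used. Rows that name no gene held 38.9% to 49.3% of each library's count and entered neither library sizes nor tests.

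Counts were tested in R 4.3.3 with edgeR 4.0.16 (filterByExpr, TMM, quasi-likelihood F test, Benjamini-Hochberg adjustment over all genes tested, threshold 0.05), each siRNA against siNT of its own experiment. SE is the size of the log2 fold change divided by the square root of F. The difference between siRNAs was a contrast in 1 model of 4 groups. GC correction used a lowess smooth (span 0.3) of log2 CPM on transcript GC content as an offset per library. Alternatives used DESeq2 1.42.0 and limma 3.58.1. The fits were run on simulated data, with pass marks set only for a coefficient of variation of 0.05 between replicates. That coefficient was 0.299 in the siMESH1-CDS experiment and 0.049 in the other. The pass marks thus did not cover the spread of the siMESH1-CDS experiment. Transcript length, GC content, gene positions and 3′ UTRs came from GENCODE 29 (GRCh38), joined to the hg19 counts by symbol: of 23710 symbols 21257 matched by name, 1160 by another symbol and 1293 not. RefSeq gave the promoters.

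Named were the 10 licensing genes, HDDC3 and the 5 genes most like the licensing genes. Of the 41 other genes ORC1 to ORC6, CDC7 and DBF4 were named by role. In each of the 4 lists, the gene with the largest fall and rise was named, by the smaller of its 2 changes. These were taken among genes called alike with both siRNAs as deposited, where no gene rose with both. Others are named where GC correction changed their reading. The licensing genes and lists were chosen with earlier results of these data known. Replicate numbers did not pair the libraries. No 2 replicates agreed within counting noise, so each was counted as 1.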

Additional observations from a re-analysis of the deposited data

Results flagged for a closer look

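For 8 licensing genes the change with siMESH1-CDS differed from that with siMESH1-7002 in a test of the difference itself, a contrast of both changes in 1 edgeR model of 12 libraries. The differences, siMESH1-CDS minus siMESH1-7002 on the log2 scale, were -3.05 for MCM2, -1.70 for MCM3, -1.21 for MCM4, -5.50 for MCM5, -3.56 for MCM7, -1.67 for MCM10, -0.50 for CDC6 and -4.51 for CDT1. Such a difference was found for 69.7% of all genes tested. Each siRNA was used in 1 experiment, on lanes and with siNT libraries of its own, so the siRNA and the experiment cannot be told apart.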

How the results depend on the processing

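The 10 licensing genes were lower with both siRNAs under every alternative tried. Of 148 refits of a single gene with siMESH1-CDS 144 kept their side of the threshold and 4 lost it, all of them GMNN without 1 library, and of 140 with siMESH1-7002 137 kept it and 3 lost it in the single model of 4 groups (given with the results). CDT1 and MCM5 had too few reads with siMESH1-CDS for the filter of 10 reads in every library. Replicate numbers did not mark shared deviations (correlations of same-numbered libraries -0.05, 0.24 and 0.13 with siMESH1-CDS and -0.07, 0.04 and -0.08 with siMESH1-7002). Fitting them as a replicate block called 10 of 10 genes lower with each siRNA, against 35.8% of all genes with siMESH1-CDS and 25.9% with siMESH1-7002. The block called 8 of 10 as different between the siRNAs, against 66.3% of all genes. That last count was 8 in the main model (69.7% of all genes), 7 with limma voom (64.6%) or DESeq2 (71.7%) and 10 with GC correction (60.9%). It was 6 with at least 10 reads in every library (72.5%) and 7 to 9 without 1 library (63.2% to 77.6%). The difference of MCM6 turned to 0.0332 with DESeq2 and ran from -0.141 to 0.001 without 1 library (0.001 without siMESH1-CDS replicate 1), and that of GMNN from -0.435 to 0.0579 (0.0579 without siMESH1-CDS replicate 3).

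Over all genes, siMESH1-CDS lowered 4121 at least 2-fold as deposited, 2118 with GC correction and 1972 with GC correction and the replicate block, which called 3188 lower at any size against 4981. The share of lower among called genes went from 50.2% to 40.0% with GC correction for siMESH1-CDS and from 50.1% to 37.7% for siMESH1-7002. Scaling by library size alone moved the median of all genes with siMESH1-CDS from -0.05 to -0.31. With siMESH1-7002 the single model of 4 groups called 1444 lower and 1138 higher, against 3622 and 3613. Of the 41 other genes, 8 were higher with siMESH1-CDS and 5 with lane as a covariate. With siMESH1-7002 the 2 higher became 1 with library-size scaling or at least 10 reads, 0 in the single model, 6 with GC correction alone or with the replicate block, and 1 to 5 without 1 library: 1 without siNT replicate 2 or siMESH1-7002 replicate 1 or 3, and 5 without siNT replicate 3. GC correction with the replicate block, like GC correction alone, turned ORC3 (-0.38), ORC5 (-0.0166; -0.0184 alone), DBF4 (-0.41; -0.40 alone) and KRT80 (0.20; 0.26 alone) with siMESH1-CDS. With siMESH1-7002 and 1 library left out ORC2 ran from -0.0083 (without siNT replicate 2) to 0.0791 and ORC5 from -0.0907 to 0.0876 (without siNT replicate 3), neither called. Per kilobase of coding sequence the highest subunit over the lowest was 3.76 and 2.24 in the siNT groups and 4.97 in siMESH1-7002. GC correction of the levels, added after seeing the data, moved the CDT1 to GMNN difference with siMESH1-CDS from -5.86 to -1.35 and turned the difference in the MCM7 share from -10.3 to 11.1 percentage points. The CDT1 to GMNN ratio without an added read could not be taken for siMESH1-CDS, where a library had 0 reads. The cause of these shifts was not tested.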

Other observations

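The siNT groups of the 2 experiments differed in the licensing genes. In siNT of the siMESH1-CDS experiment the mean level was 4.53 times that of the other siNT group for MCM10, 4.12 times for CDC6, 3.19 times for MCM4 and 3.14 times for GMNN. For MCM5 it was 0.854 times and for CDT1 0.215 times as high. MCM10 thus stood at 59.5 and 13.1 CPM and CDT1 at 7.83 and 36.4 CPM in cells that had received the same control siRNA, dose and time. Each experiment was normalized by itself, so these levels, not corrected for GC content, were set side by side without a test. GMNN, CDC6, MCM10 and MCM4 have a GC content of 43.6% to 51.0%, and MCM5 and CDT1 of 56.6% and 64.9%. MCM6 (43.1%) stood at 1.47 times and MCM7 (58.1%) at 1.67 times. The part of GC content was not tested.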
